A study of Rattus norvegicus with 3 samples.

Results

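The mitochondrial carrier family is described here as the genes whose rat symbol begins with Slc25a, found through the RefSeq accession that each probe carries. There were 38 such genes with 48 probes, among 15168 genes with a symbol. The arrays held 30367 probes, of which 18005 had a symbol. Messenger RNA was measured on 3 one-colour (Cy3) Agilent arrays of calf muscle from male rats, 12 weeks old and of a Wistar background (Wistar Honnover in the labels). One array held soleus taken 28 days after a gap of about 5 mm was cut in the left sciatic nerve, 1 held normal plantaris, and 1 held normal soleus. The normal rats were untreated, with no sham operation named, and the soleus is a slow postural muscle whereas the plantaris is a faster neighbour. How many animals gave RNA to an array, and whether RNA was pooled, is not stated by the labels.

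Mitochondrial carriers are small proteins that sit in the mitochondrial inner membrane, with a few in other membranes, and each exchanges or imports a class of metabolite. They bring ADP and phosphate to the ATP synthase and let ATP out, admit acylcarnitines for fatty acid oxidation, and pass carboxylates, amino acids, nucleotides, cofactors and iron. Muscle uses them heavily, since its contraction is fed by mitochondrial ATP.

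A signal is given as a multiple of the 75th percentile spot of its own array, called the scaled signal, so that 1 is the brightness of that spot. A scaled signal may be compared across the 3 arrays for 1 probe, but not between probes, which hybridise differently. A fold is a difference of log2 scaled signals, so 1 unit is 2-fold, and its error (±) comes from the scanner software and covers measurement only. With 1 array a group there are no replicates and no test was made, so each fold describes these arrays. The denervated array lay on a slide of its own and was scanned apart from the other two, which shared a slide and a scan. An effect of denervation and one of slide or scan therefore cannot be told apart.

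Of the 38 carriers 30 were well above background on all 3 arrays and 8 on none, whereas of all 15168 genes 65.0% were so on all 3. The share well above background on any array was 78.9% of carriers, close to 76.6% of all genes. The 8 were Slc25a2, Slc25a15, Slc25a21, Slc25a27, Slc25a41, Slc25a47, Slc25a53 and Slc25a54, with scaled signals between 0.0041 and 0.016, and no fold is given for them. Among them are an ornithine carrier (Slc25a15) and an oxodicarboxylate carrier (Slc25a21). The symbols Slc25a12, Slc25a13, Slc25a26, Slc25a31, Slc25a36, Slc25a40, Slc25a43, Slc25a45, Slc25a48, Slc25a52 and Slc25a6, and 4 copies named after other carriers, had no probe matched by accession and were not analysed here. The aspartate/glutamate carriers are in that group.

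The labelled muscles were checked by fibre markers. All 6 slow fibre markers were at least 2-fold lower in plantaris than in normal soleus (median fold -2.68) and all 6 fast fibre markers at least 2-fold higher (median 7.30). Between 64.2% and 67.0% of probes were well above background. After denervation 5 of the 6 slow markers were at least 2-fold lower and 4 of the 6 fast markers at least 2-fold higher. Skeletal muscle markers (4 on the arrays, all well above background) summed to a scaled signal of 721 in denervated soleus and 1816 in plantaris, against 1404 in normal soleus. Mb made up 484 of the denervated sum. After denervation Acta1 stood at -2.44, Ckm at -1.48, Des at -1.21 and Mb at -0.18 (median -1.34). The median of this list in plantaris was 0.23. The 8 adipocyte markers summed to 78.4 in denervated soleus and 15.4 in plantaris, against 32.6 in normal soleus. These sums join unlike probes and are led by the brightest, Cfd after denervation (49.4 of the sum). The median fold of the adipocyte list was 2.40 after denervation, with Lpl at -1.91, and -0.26 in plantaris, where Cidea (-3.32) and Lpl (-2.44) were low. The 8 fibroblast and tendon markers summed to 270.1 in denervated soleus and 212 in plantaris, against 119 in normal soleus. Their median fold was 0.91 after denervation, with all 8 above 0, and 0.35 in plantaris, where Col1a1 (1.59) and Fmod (1.36) were high and Scx (-0.85), Pdgfra (-0.30) and Col3a1 (-0.28) lay below 0. Of the adipocyte markers only Lep was below background, on each array. Of 3 brown fat markers Ucp1, the defining one, was below background on each array and Elovl3 was above it in plantaris only. The other, Cidea, which is also in the adipocyte list, had 8.30 in denervated soleus and 0.807 in plantaris, against 8.08 in normal soleus. In whole muscle, fewer cells of a type and less RNA per cell cannot be told apart, and the part of this mixture in the folds below was not tested.

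In the denervated soleus 7 of 30 measured carriers were at least 2-fold lower than in normal soleus (23.3%) and 1 was at least 2-fold higher (3.33%). The carriers of ADP, ATP, phosphate, acylcarnitine, glutamate and pyrimidine nucleotides were among the lower ones. Among genes that entered the comparison through at least 1 array, 13.5% were at least 2-fold lower and 8.8% higher. Among genes well above background on both arrays, as all 30 carriers were, the shares were 11.7% and 6.65%. The carriers' median log2 fold was -0.39, beside 0.03 over all genes that entered, and 19 of 30 lay below 0, as did 49.8% of genes well above background on both arrays. Their folds ran between -1.97 and 1.22, and 6 of 30 were smaller than their scanner error, as were 27.5% of genes well above background on both arrays.

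In normal plantaris 2 of 30 carriers were at least 2-fold lower than in normal soleus and 2 at least 2-fold higher (6.67% each). All genes that entered gave 6.14% lower and 5.76% higher, and those well above background on both arrays 4.31% and 4.37%. The carriers' median was 0.05 beside 0.02 over all genes, and 14 of 30 lay below 0, against 47.8% of genes well above background on both arrays. Their folds ran between -1.60 and 1.99, and 11 of 30 were smaller than their scanner error, as were 41.3% of such genes. Both comparisons use the same normal soleus array, so a fold in one is not independent of a fold in the other.

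**Figure D1:**
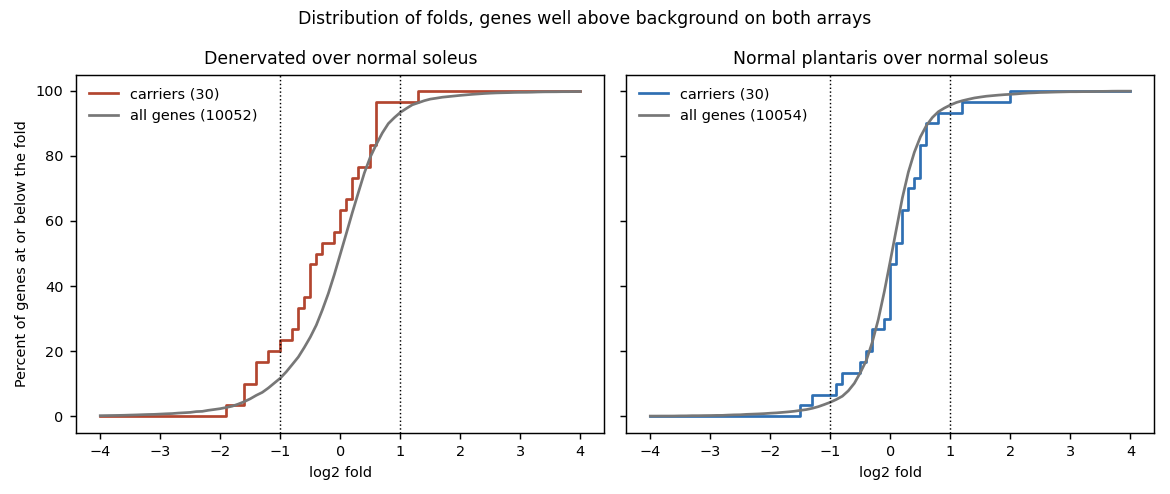
Cumulative share (percent of genes, vertical) at or below each log2 fold (horizontal) for the 30 carriers (coloured steps) and for all genes well above background on both arrays (grey), in denervated over normal soleus (left) and normal plantaris over normal soleus (right). Dotted lines mark 2-fold. The carrier steps lie above the grey line on the low side of the left panel, where 23.3% of carriers and 11.7% of genes were at least 2-fold lower.

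Ranked over the 3 arrays, 17 of 30 carriers (56.7%) were lowest in denervated soleus, against 41.1% of the 9855 genes well above background on all 3. Normal plantaris was lowest for 9 (30%, against 33.8% of those genes) and normal soleus for 4 (13.3%, against 25.1% of those genes). The highest array was denervated soleus for 8 carriers (26.7%, against 40.5% of those genes), normal plantaris for 15 (50%, against 36.5%) and normal soleus for 7 (23.3%, against 22.9%).

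**Figure D2:**
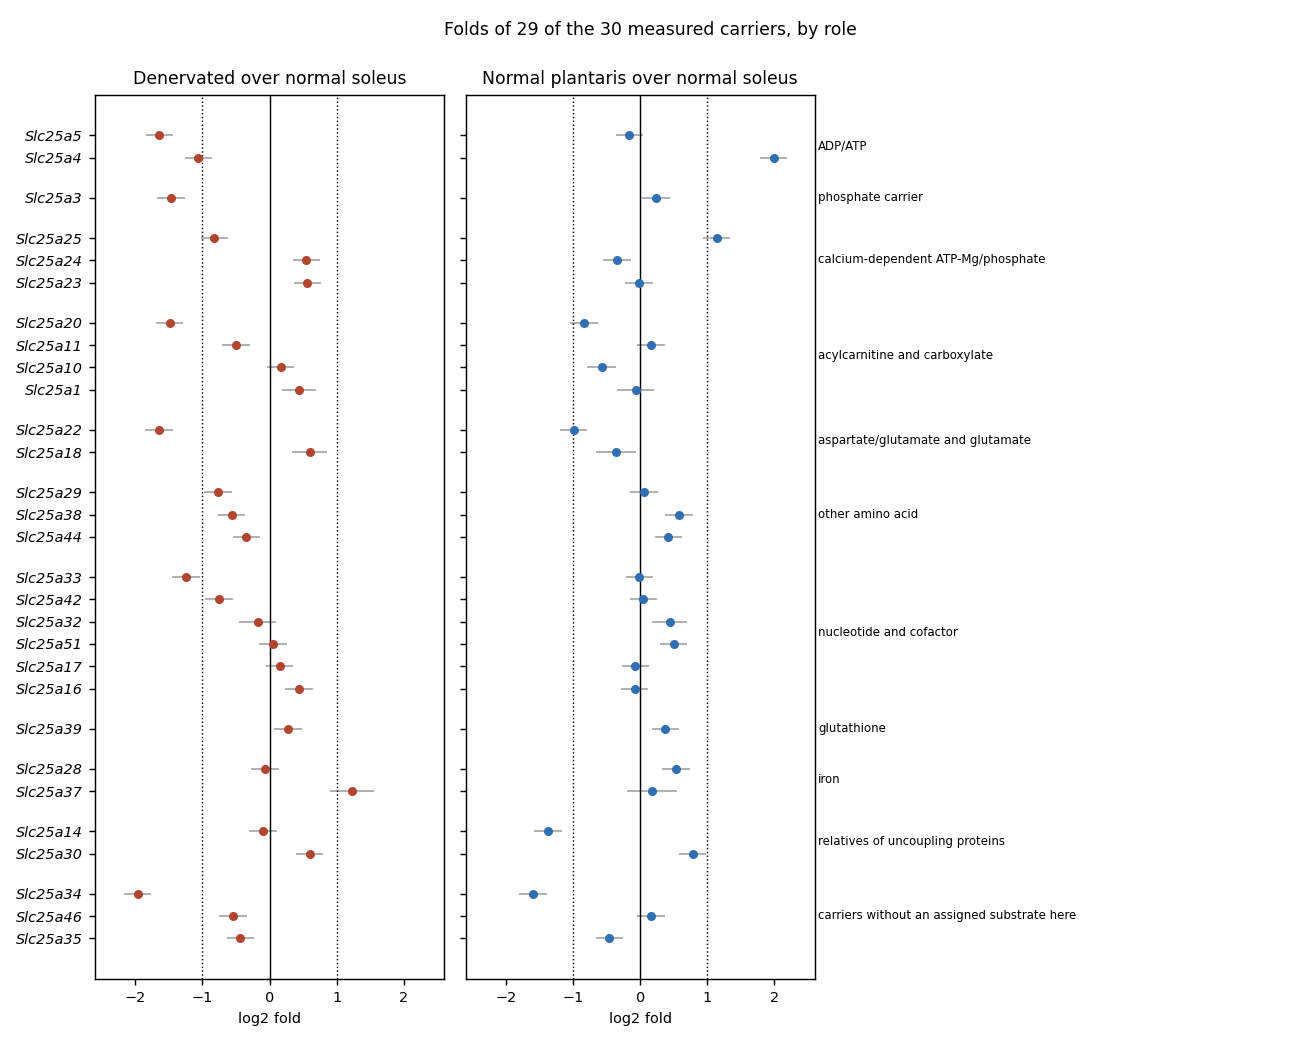
Log2 folds (horizontal) of 29 of the 30 measured carriers, grouped by role (names at right), in denervated over normal soleus (left) and normal plantaris over normal soleus (right). Points are 1 fold each, bars the scanner error, dotted lines 2-fold. Slc25a34 lies lowest in both panels, at -1.97 and -1.60, and Slc25a4 lies highest in the right panel, at 1.99.

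The ADP/ATP carriers exchange cytosolic ADP for mitochondrial ATP. Of 4 genes given this role 2 had a probe here, a muscle and heart form, Slc25a4, and a form found in most tissues, Slc25a5. The 2 genes are shown by their promoters because they parted between the muscles. Each sequence runs 5′ to 3′ from 250 bases before to 50 after the annotated start (RefSeq, GRCr8), at chr16:52805271-52805570 (+ strand) and chrX:120897366-120897665 (+ strand). Capitals mark TATAA and CCAAT.
Slc25a4: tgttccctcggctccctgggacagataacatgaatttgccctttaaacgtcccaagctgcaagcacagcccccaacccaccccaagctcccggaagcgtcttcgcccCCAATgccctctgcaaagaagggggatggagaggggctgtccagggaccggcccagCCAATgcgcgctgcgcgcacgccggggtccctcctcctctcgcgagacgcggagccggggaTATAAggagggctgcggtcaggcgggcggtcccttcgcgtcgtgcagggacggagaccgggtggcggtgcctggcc
Slc25a5: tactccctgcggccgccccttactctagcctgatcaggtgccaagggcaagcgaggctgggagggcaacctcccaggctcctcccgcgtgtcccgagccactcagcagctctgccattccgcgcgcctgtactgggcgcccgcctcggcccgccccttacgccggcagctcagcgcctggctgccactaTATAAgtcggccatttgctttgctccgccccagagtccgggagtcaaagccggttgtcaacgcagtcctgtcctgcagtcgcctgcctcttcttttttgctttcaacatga
Counting the annotated start base as 0, TATAA began at -26 in the Slc25a4 promoter and at -61 in that of Slc25a5. The Slc25a4 promoter also held CCAAT at -143 and -87, and the Slc25a5 promoter held none. CCAAT was in 19 of 33 carrier promoters. Both motifs were picked after the promoters had been read, and no link to the folds was tested.

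Slc25a4 had a scaled signal of 13.4 in denervated soleus and 111 in normal plantaris, against 28.0 in normal soleus. Plantaris was 3.97-fold above normal soleus (1.99 ± 0.20), which was a larger fold than 98.6% of genes, while denervated soleus stood at 47.9% of normal soleus (-1.06 ± 0.20). The denervation value was just past 2-fold and was -0.78 with quantile normalization and -0.82 with the authors' deposited values.

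Slc25a5 had 31.2 in denervated soleus and 87.2 in plantaris, against 97.4 in normal soleus. The plantaris and normal soleus values differed by less than the scanner error (-0.16 ± 0.20), and denervated soleus stood at -1.64 ± 0.20. The Slc25a4 fold exceeded the Slc25a5 fold by 2.15 log2 units in plantaris over normal soleus and by 0.58 in denervated over normal soleus.

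A second, fainter probe of Slc25a5 gave another result after denervation. It had 3.16 in denervated soleus and 1.73 in plantaris, against 2.28 in normal soleus, so its folds were 0.47 ± 0.20 and -0.39 ± 0.20. With the mean of both probes the denervation fold was -0.59, no longer 2-fold. The reference table lists 9 pseudogenes of Slc25a5, more than of any other carrier, and 1 of Slc25a4, and which copies a probe binds is not given in the files, so the Slc25a5 values are uncertain.

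Slc25a3, which imports the phosphate that the ATP synthase joins to ADP, had 22.3 in denervated soleus and 72.5 in plantaris, against 61.7 in normal soleus. It stood at -1.47 ± 0.20 after denervation and at 0.23 ± 0.20 in plantaris. On their brightest probes the 3 measured ADP/ATP and phosphate carriers were each at least 2-fold lower after denervation, and Slc25a4 alone among them was past 2-fold in plantaris.

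**Figure D3:**
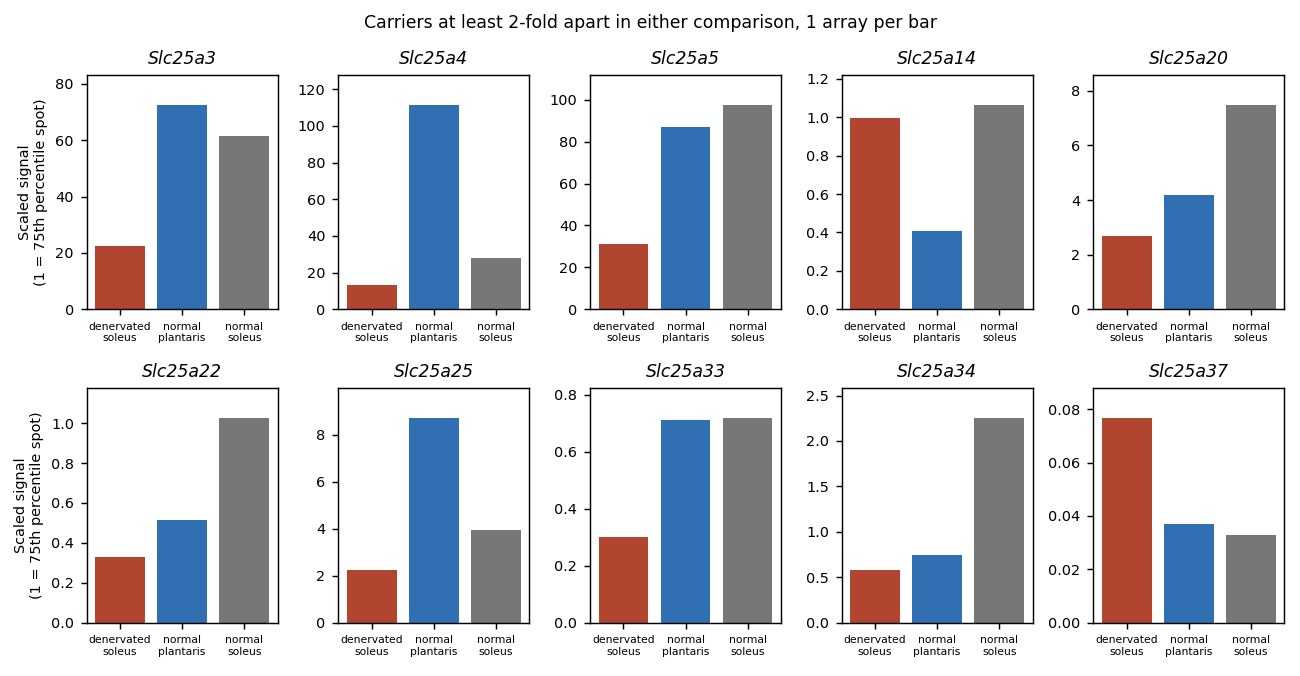
Scaled signal (vertical, linear from 0, where 1 is the 75th percentile spot of the array) of the 10 carriers at least 2-fold apart in either comparison, with 1 bar per array for denervated soleus, normal plantaris and normal soleus. Each panel has its own scale. Slc25a3, Slc25a5 and Slc25a33 are low in denervated soleus alone, Slc25a20, Slc25a22 and Slc25a34 are highest in normal soleus, and Slc25a4 and Slc25a25 are highest in plantaris.

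The ATP-Mg/phosphate carriers are opened by calcium and adjust the adenine nucleotide content of mitochondria. Slc25a25 had 2.23 in denervated soleus and 8.68 in plantaris, against 3.94 in normal soleus, each over 10 repeat spots with an SD of at most 0.070 log2 units. It was 2.20-fold higher in plantaris (1.14 ± 0.20) and stood at -0.82 ± 0.20 after denervation. Its relatives lay on the other side of 0 after denervation. Slc25a24 had 1.06 in denervated soleus and 0.568 in plantaris, against 0.723 in normal soleus (0.55 ± 0.20 and -0.35 ± 0.21). Slc25a23 had 3.64 in denervated soleus and 2.44 in plantaris, against 2.46 in normal soleus (0.56 ± 0.20 and -0.02 ± 0.20). Of the 3 measured genes of this group Slc25a25 alone passed 2-fold, and in plantaris alone.

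The carnitine/acylcarnitine carrier Slc25a20 admits fatty acids bound to carnitine, and Slc25a34 is a carrier whose substrate is not settled. Both were among the 7 carriers highest in normal soleus, and their promoters are printed as examples. No link between the marked motifs and the folds was tested. They lie at chr8:118243323-118243622 (+ strand) and chr5:159219843-159220142 (- strand), in the same frame and build as above. Capitals mark CCGGAAGT, the core of a GABP binding element, in the first and ATTGG, the reverse complement of CCAAT, in the second.
Slc25a20: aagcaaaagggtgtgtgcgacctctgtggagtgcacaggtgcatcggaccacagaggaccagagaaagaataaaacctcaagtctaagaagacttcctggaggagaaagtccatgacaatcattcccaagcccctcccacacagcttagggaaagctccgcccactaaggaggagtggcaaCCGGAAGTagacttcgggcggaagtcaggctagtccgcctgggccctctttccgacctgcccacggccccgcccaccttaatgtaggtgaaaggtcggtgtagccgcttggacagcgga
Slc25a34: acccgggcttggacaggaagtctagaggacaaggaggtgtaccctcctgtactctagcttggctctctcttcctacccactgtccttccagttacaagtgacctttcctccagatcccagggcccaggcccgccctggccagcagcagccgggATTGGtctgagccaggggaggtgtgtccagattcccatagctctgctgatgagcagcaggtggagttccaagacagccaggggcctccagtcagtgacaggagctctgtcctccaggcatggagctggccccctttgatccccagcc
CCGGAAGT began at -69 in the Slc25a20 promoter, and ATTGG at -97 in that of Slc25a34.

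Slc25a20 had 2.67 in denervated soleus and 4.18 in plantaris, against 7.48 in normal soleus. Denervated soleus was at 35.6% of normal soleus (-1.49 ± 0.20) and plantaris at 55.9% (-0.84 ± 0.20). The enzymes of the carnitine shuttle are set beside it. After denervation Cpt1b, which makes acylcarnitine outside the inner membrane, stood at -1.45 and Cpt2, which releases the acyl group inside, at -2.0, and in plantaris they stood at -0.98 and -0.86. Crat, which moves acetyl groups to and from carnitine, stood at -1.44 after denervation and at 0.24 in plantaris. Of 5 carnitine shuttle genes 3 were at least 2-fold lower after denervation (60%) and none in plantaris. The denervation share was 13.5% of all genes and 11.7% of those well above background on both arrays. The liver form Cpt1a (0.50) and the plasma membrane carnitine transporter Slc22a5 (0.44) lay above 0 after denervation.

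Slc25a34 had 0.575 in denervated soleus and 0.744 in plantaris, against 2.25 in normal soleus. It had the lowest fold of the 30 carriers in each comparison, -1.97 ± 0.20 (25.6% of normal soleus) and -1.60 ± 0.20 (33.1%). Its relative Slc25a35 had 1.07 in denervated soleus and 1.05 in plantaris, against 1.44 in normal soleus, folds of -0.43 and -0.46. These values put normal soleus on top for both genes, with the larger distance for Slc25a34.

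Slc25a22, a mitochondrial glutamate carrier, had 0.327 in denervated soleus and 0.514 in plantaris, against 1.02 in normal soleus. It stood at -1.65 ± 0.21 after denervation and at -0.99 ± 0.20 in plantaris, just short of 2-fold. The second glutamate carrier, Slc25a18, was faint, with 0.076 in denervated soleus and 0.039 in plantaris, against 0.050 in normal soleus (0.60 ± 0.26 and -0.36 ± 0.30). The 2 glutamate carriers had folds of opposite sign after denervation, though that of Slc25a18 rested on 1 spot an array. The Slc25a18 fold fell to 0.19 with normexp background, and a second probe of that gene was well above background on no array.

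The carboxylate carriers differed little. Slc25a11, the oxoglutarate/malate carrier of the malate-aspartate shuttle, had 13.2 in denervated soleus and 20.9 in plantaris, against 18.7 in normal soleus (-0.50 ± 0.20 and 0.16 ± 0.20). The soluble enzymes of the same shuttle were further down after denervation, Mdh1 at -2.41, Mdh2 at -1.97, Got1 at -1.67 and Got2 at -0.79. In plantaris the glycerol phosphate shuttle enzymes Gpd1 (3.41) and Gpd2 (1.34) were the 2 of 6 shuttle genes past 2-fold (33.3%). Of all genes 5.76% were at least 2-fold higher there, and 4.37% of those well above background on both arrays. The dicarboxylate carrier Slc25a10 had 0.267 in denervated soleus and 0.160 in plantaris, against 0.238 in normal soleus (0.16 ± 0.21 and -0.58 ± 0.21). The citrate carrier Slc25a1, which exports citrate for lipid synthesis, had 0.0842 in denervated soleus and 0.0591 in plantaris, against 0.0621 in normal soleus. It stood at 0.44 ± 0.26 and -0.07 ± 0.28, and with normexp background its denervation fold was -0.04.

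Among nucleotide and cofactor carriers, Slc25a33, a pyrimidine nucleotide carrier, had 0.302 in denervated soleus and 0.709 in plantaris, against 0.716 in normal soleus. It stood at -1.25 ± 0.21 after denervation and at -0.01 ± 0.20 in plantaris. A fainter probe gave -0.87 ± 0.23 and -0.25. Of the 7 genes of this group it alone passed 2-fold.

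The coenzyme A carrier Slc25a42 had 1.95 in denervated soleus and 3.40 in plantaris, against 3.29 in normal soleus, a denervation fold of -0.75 that was -0.08 on a much fainter probe. On its brighter probe it was lowest in denervated soleus. Slc25a32, linked to folate and flavin transport, had 0.0557 in denervated soleus and 0.0852 in plantaris, against 0.0629 in normal soleus (-0.17 ± 0.27 after denervation). The NAD carrier Slc25a51 had 2.84 in denervated soleus and 3.87 in plantaris, against 2.74 in normal soleus (0.05 ± 0.20 after denervation). These 2 were highest in plantaris. The peroxisomal carrier Slc25a17 had 2.35 in denervated soleus and 2.02 in plantaris, against 2.12 in normal soleus (0.15 ± 0.20 after denervation). Slc25a16 had 1.26 in denervated soleus and 0.875 in plantaris, against 0.927 in normal soleus (0.44 ± 0.20 after denervation, 0.86 ± 0.23 on a fainter probe). In plantaris the folds of these 5 lay between -0.08 for Slc25a16 and 0.50 for Slc25a51.

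**Figure D4:**
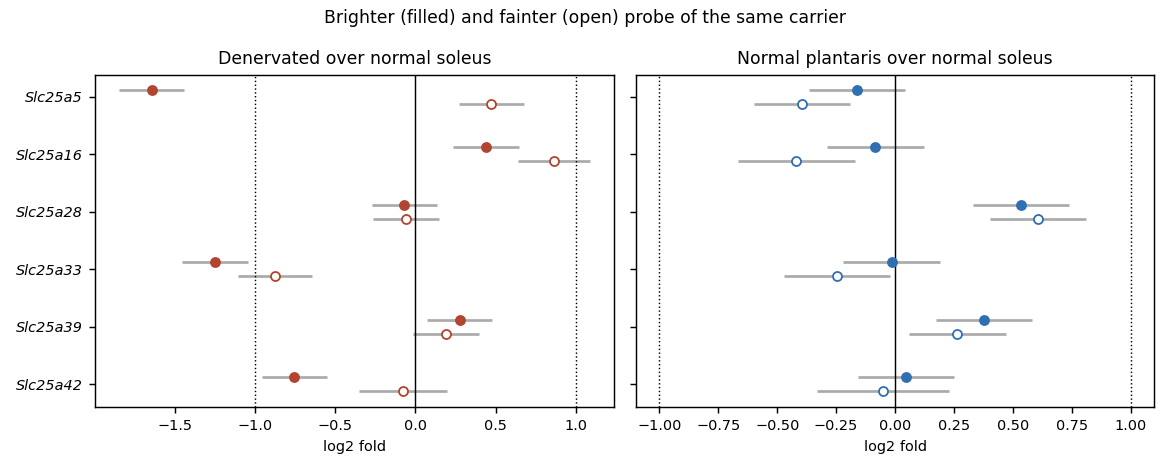
Log2 folds (horizontal) of the brighter (filled) and fainter (open) probe for 6 carriers with 2 probes well above background on all 3 arrays, in denervated over normal soleus (left) and normal plantaris over normal soleus (right), with the scanner error. In the left panel the probes of Slc25a5 lie on opposite sides of 0, at -1.64 and 0.47, whereas those of Slc25a28 nearly coincide.

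The 3 other measured amino acid carriers lay below 0 after denervation and above 0 in plantaris, none past 2-fold. Slc25a29, a carrier of basic amino acids, had 0.179 in denervated soleus and 0.317 in plantaris, against 0.304 in normal soleus (-0.76 ± 0.21 and 0.06 ± 0.21). The glycine carrier Slc25a38, needed for haem synthesis, had 0.487 in denervated soleus and 1.08 in plantaris, against 0.721 in normal soleus (-0.56 ± 0.20 and 0.58 ± 0.20). Slc25a44, a carrier of branched-chain amino acids, stood at -0.35 ± 0.20 and 0.42 ± 0.20. It had 1.26 in denervated soleus and 2.14 in plantaris, against 1.60 in normal soleus, with 10 repeat spots.

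The 2 mitoferrins carry iron into mitochondria. Slc25a37 (mitoferrin 1) had 0.077 in denervated soleus and 0.037 in plantaris, against 0.033 in normal soleus. It was the 1 carrier at least 2-fold higher after denervation (1.22 ± 0.33), but it was faint and stood at 0.39 with normexp background. Slc25a28 (mitoferrin 2) had 5.31 in denervated soleus and 8.06 in plantaris, against 5.57 in normal soleus (-0.07 ± 0.20 and 0.53 ± 0.20), and its second probe gave -0.06 and 0.61. The iron carriers were therefore near their normal soleus level or above it on each array. Mitoferrin 1 serves haem synthesis in red cell precursors. The blood cell markers Hba-a1, Hbb and Alas2 stood at -0.06, 0.02 and 0.46 after denervation and at -0.59, -0.45 and -0.47 in plantaris. Whether blood cells had a part in the Slc25a37 fold was not tested. The glutathione carrier Slc25a39 stood at 0.28 ± 0.20 after denervation and at 0.38 ± 0.20 in plantaris.

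Relatives of the uncoupling proteins split between the muscles. Slc25a14 had 0.993 in denervated soleus and 0.409 in plantaris, against 1.06 in normal soleus. It stood at -1.38 ± 0.21 in plantaris and at -0.10 ± 0.20 after denervation, so it was low in plantaris alone. Slc25a30 had 0.807 in denervated soleus and 0.917 in plantaris, against 0.533 in normal soleus, folds of 0.60 ± 0.21 and 0.78 ± 0.21. Of the uncoupling proteins proper, which belong to the family under other symbols, Ucp3 of skeletal muscle had 2.64 in denervated soleus and 6.31 in plantaris, against 2.28 in normal soleus (0.21 and 1.47), and Ucp2 had 0.168 and 0.121, against 0.153. Mtch1, also of the family under another symbol, had 43.7 in denervated soleus and 18.9 in plantaris, against 24.2 in normal soleus (0.85 and -0.35). Its relative Mtch2 stood at -0.002 and 0.39. Slc25a46, an outer membrane relative linked to mitochondrial shape, had 3.68 in denervated soleus and 6.0 in plantaris, against 5.37 in normal soleus (-0.55 and 0.16).

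The carriers were set beside the machinery they serve. After denervation all 12 genes picked from the respiratory chain and ATP synthase lay below -1 (median -1.51), against 7 of 30 carriers (median -0.39). The 12 are a part of that machinery, whereas the 30 are all measured carriers. Of all genes well above background on both arrays 11.7% were at least 2-fold lower. Cox4i1 (-1.03), Ndufb8 (-1.08) and Atp5f1a (-1.17) were past -1 by less than their scanner error of 0.20. How many of the 12 stayed past it under other processing is not given here. Sarcomeric mitochondrial creatine kinase Ckmt2, which takes the ATP that the ADP/ATP carriers export, stood at -3.83, below any carrier. In plantaris none of the 12 picked genes passed 2-fold (median 0.09, range -0.30 to 0.45) and Ckmt2 stood at -0.15, while Slc25a4 was at 1.99. Differences between the lists were not tested.

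**Figure D5:**
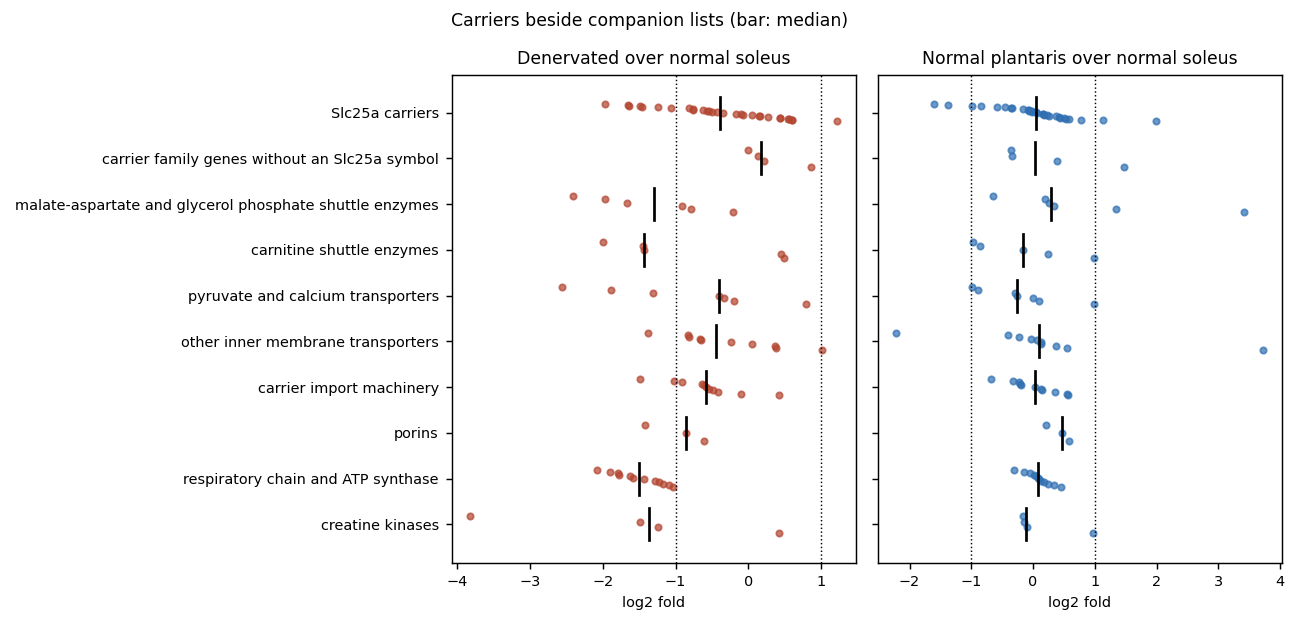
Log2 folds (horizontal) of the 30 carriers and of 9 lists of related genes (rows), in denervated over normal soleus (left) and normal plantaris over normal soleus (right). Points are genes, bounds for genes below background on 1 array included, black bars are medians and dotted lines mark 2-fold. The 12 genes picked from the respiratory chain and ATP synthase lie left of -1 in the left panel, while the carriers spread between -1.97 and 1.22.

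Promoters of 33 of the 38 carriers were found in the RefSeq table, 25 of them of measured carriers, and were searched on both strands for 5 motifs, none of which contains another. The ERR element TCAAGGTCA was in 0 of 33 carrier promoters and in 0.412% of all 27457 promoters of that length, and the NRF-1 core GCGCATGCG in 0 and 1.66%. CCGGAAGT was in 3 carrier promoters (Slc25a17, Slc25a20, Slc25a54) and 4.01% of all. CCAAT was in 19 and 37.7%, and TATAA in 4 (Slc25a4, Slc25a5, Slc25a38, Slc25a51) and 26.1%. TATAA starting between -40 and -20 on the gene's own strand was in 1 carrier promoter, that of Slc25a4, and in 2.71% of all. TATAA and CCAAT were added after these promoters had been read. The promoters of the 33 had a median of 60.3% G or C, against 52.3% over all.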

How the data were processed

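Messenger RNA was measured on 3 one-colour arrays, 1 per group. Per the file headers and the submitters' processing notes, they were quantified with Agilent Feature Extraction 10.10.1.1. Their processed signal, per the file headers a linear intensity after background subtraction and detrending within the array, was not normalized between arrays. The other columns used are flags of spot type, outliers, saturation and signal well above background. The authors' deposited value table is also an intensity. Over spots with a processed signal above 100 it was 1.41 times that signal on the denervated array, 1.80 times on plantaris and 1.60 times on normal soleus. What set these factors is unknown, and the table's column medians were 243, 181 and 204.

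Log2 processed signals of the 58717 non-control spots were centred on their 75th percentile. Spots with an outlier flag (467 to 569 per array) were dropped, and 0 spots were saturated. Spots that repeat a probe were averaged, and detection of a probe needed at least 50% of its spots well above background. Each gene was read from its brightest probe. A gene entered a comparison if well above background on at least 1 of its 2 arrays, and where it was so on 1 only its fold is a bound against the dim array, where the larger of the probe's value and the lowest detected signal was taken. A bound that came out with the opposite sign was dropped. Symbols came from RefSeq accessions (GRCr8 table), for 18005 probes. The array design was drawn on an older assembly, so coordinates are given only with printed promoters.

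The 3 arrays limit the precision. Measured carriers with repeat spots (26 of 30) had a median spot SD of 0.058 log2 units on the denervated array, 0.051 on plantaris and 0.044 on normal soleus. The median scanner error of a carrier fold was 0.20. Genes past 2-fold are counted by size, with no test. The calculations were tested on simulated data. Alternatives were normexp background (offset 50, limma 3.58.1), quantile normalization, median centring, the authors' values, no dim-probe filter, detection on both arrays, and the mean over probes. The files hold the median and not the mean spot signal, so normexp used the median. The members, lists and comparisons were chosen with earlier results of these data known. One measured carrier is not reported here by name or value, though the counts over the family include it. The others are accounted for, with values for those past 2-fold, those sharing a role and the 6 brightest, and up to 4 genes with the largest folds are named per companion list. Got2 and Slc22a5 were named beyond that for their role, and some genes near the 2-fold line or near 0 to show the limits of a count. The NRF-1 motif was shortened to its first 9 letters after a search with 10. Analyses used python 3.11.15 and R 4.3.3.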

Additional observations from a re-analysis of the deposited data

How the results depend on the processing

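The number of carriers at least 2-fold lower after denervation was 7 and lay between 6 and 7 under the 7 alternatives, and the counts in plantaris were 2 higher in each and 2 or 3 lower. The 1 carrier at least 2-fold higher after denervation, Slc25a37, was lost with normexp background, where the count was 0. The carriers' median after denervation moved from -0.39 to -0.15 with the authors' deposited values, where the median of all genes stood at 0.27. All genes stood at 0.03 in the reported setting. With normexp background the carriers' median was -0.37 beside -0.09 over all genes, a smaller distance, and with no filter on dim probes -0.42 beside -0.11. In plantaris the median was 0.05, but -0.06 under the authors' values and -0.02 without the filter on dim probes. Of the 8 carriers past 2-fold after denervation, 5 stayed past it under each alternative, Slc25a4, Slc25a5 and Slc25a37 being the exceptions. The 4 past 2-fold in plantaris stayed so under each alternative, and Slc25a22 passed 2-fold there with the authors' values (-1.10). No single-carrier fold past 2-fold changed sign. No paired analysis was possible because each group has 1 array, and for the same reason no replicate could be left out and slide could not be fitted as a block. Signal over background limits Slc25a1, Slc25a18, Slc25a32 and Slc25a37, whose fold errors reach 0.38.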

Other observations

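Other transport genes of the mitochondrial membranes, outside the carrier family, differed as follows. After denervation both subunits of the pyruvate carrier were at least 2-fold lower, Mpc1 at -2.56 with a scaled signal of 17.1 in denervated soleus against 100.4 in normal soleus, and Mpc2 at -1.89. The calcium uniporter pore Mcu stood at -1.31. The porins of the outer membrane stood at -1.43 (Vdac1), -0.86 (Vdac3) and -0.61 (Vdac2). Of 10 other inner membrane transporters Letm1 (-1.39) was at least 2-fold lower and the sideroflexin Sfxn4 (1.02 ± 0.20, just past the line) higher. These were 10% each, near the 13.5% and 8.8% of all genes and the 11.7% and 6.65% of those well above background on both arrays. In plantaris the sideroflexin Sfxn5 stood at 3.73, with 1.06 in plantaris against 0.080 in normal soleus. Sfxn1 was below background in plantaris and stood at -2.22 ± 0.62 when its own dim value there was used.

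The import machinery that places carriers in the inner membrane had 2 of 11 genes at least 2-fold lower after denervation, Timm10 (-1.49) and Tomm40 (-1.02). Tomm40 was past the line by less than its scanner error of 0.21. This was 18.2% beside 13.5% of all genes and 11.7% of those well above background on both arrays, as all 11 were. The median of the 11 was -0.58 after denervation, and none was past 2-fold in plantaris (median 0.03). Of 11 oxidative regulators 6 were at least 2-fold lower after denervation (54.5% beside 13.5% of all genes), among them Perm1 (-7.95) and Esrra (-1.66). Perm1 was faint in denervated soleus (0.031, against 7.58 in normal soleus). Another of the 6, Ppard, stood at -1.83, but at -0.22 on a second probe. Ppargc1a (-0.19), Nrf1 (-0.19) and Gabpa (0.22) lay near 0. In plantaris 1 of 10 was lower, Esrrg (-1.25 ± 0.36), 10% beside 6.14% of all genes. Esrrg was faint, with 0.030 in plantaris against 0.072 in normal soleus, and past the line by less than that error.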
